A study of Caenorhabditis elegans with 12 samples.

Results

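The C-type lectins are the genes named clec followed by a number. The files listed 245 of them, and 123 reached 1 FPKM (fragments per kilobase, relative to all mapped fragments of the library, the unit of the deposited files) in 3 or more of the 12 libraries. These 123 are described here. They were measured by RNA-seq of whole Caenorhabditis elegans in glp-1(e2141) at day 6 of adulthood (D6), glp-1(e2141) at day 1 (D1), wild type N2 at D6 and wild type N2 at D1, with 3 libraries in each group. All animals ate OP50 bacteria, grew from synchronized first-stage larvae at 25 °C to D1 and, for D6, were then moved to a lower temperature. That temperature is 20, 21 and 22 °C for D6 replicates 1, 2 and 3 of either genotype in the labels, and 20 °C in the design text. Age and the temperature shift cannot be told apart. The e2141 allele is a temperature-sensitive mutation of a receptor of the Notch family on which germline stem cells depend, and animals raised at the restrictive temperature make almost no germ cells. Wild type grown at 25 °C carries the same heat exposure. The labels do not say whether libraries of 1 group are from different cultures, and p-values then reflect a spread between libraries that could be technical in part.

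C-type lectins carry the C-type lectin-like domain, a fold that in many animal proteins binds sugars with the help of calcium. In C. elegans the family is one of the largest of the genome, and many members encode predicted secreted proteins. Many are made in the intestine and are induced by bacterial infection, downstream of pathways such as the PMK-1 p38 MAP kinase cascade and the insulin-like receptor DAF-2, and several are routinely used as reporters of the innate immune response. Others are made in the germline or in sperm, where their roles are less known.

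Of the 122 clec genes that were not members, 110 reached 1 FPKM in no library, 10 in 1 library and 2, clec-72 and clec-117, in 2 libraries, and 16 of the 122 were listed at 0 in all 12. The third-highest value, which decided membership, was 1.02 FPKM for clec-151 and 1.07 FPKM for clec-174 just inside the threshold, and 0.968 FPKM for clec-72 and 0.939 FPKM for clec-119 just outside it. Among the 123 members, 49 reached 1 FPKM in all 12 libraries and 28 in exactly 3. A member that entered through 1 group had to differ from the others: 12 members reached 1 FPKM in glp-1 libraries and in no wild-type library, 23 in wild-type libraries and in no glp-1 library, 26 at D1 and not at D6, and 4 at D6 and not at D1. The main counts over the members are therefore followed by the same counts for the 49 that were above 1 FPKM throughout. Genes near 0 in glp-1 cannot be among the 49, which tilts their counts towards higher calls in glp-1. The shares over all genes are of the 13614 genes tested, so the counts of the 49 have no matching share here.

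The glp-1 gene itself stood at 5.44 to 6.69 FPKM in glp-1 D6 libraries, 3.21 to 3.39 FPKM in glp-1 D1 libraries, 96.9 to 99.3 FPKM in wild-type D6 libraries and 64.4 to 68.7 FPKM in wild-type D1 libraries. A list of 27 genes of germline stem cells, meiosis and oocytes, all lower in glp-1 at both ages, summed to 209, 39.5 and 138 FPKM in glp-1 D6 replicates 1, 2 and 3, to 18.8 to 23.7 FPKM in glp-1 D1 libraries, and to 19912 to 20839 FPKM in wild-type D6 libraries and to 15514 to 16296 FPKM in wild-type D1 libraries. Replicates 1 and 3 of glp-1 at D6 thus stood apart from replicate 2, and results that rest on them are given with and without them. The lists for other tissues were mostly higher in glp-1 at D1, with 16 of 17 tested intestine genes, 17 of 20 of body wall muscle, 17 of 20 of neurons, 10 of 18 of the epidermis, 8 of 11 of the pharynx and 8 of 10 of the somatic gonad. Over all genes tested 41.3% were higher. FPKM are shares of the RNA sequenced. In whole animals fewer cells of a type and less RNA per cell cannot be told apart, and the part of the lost germline RNA in the higher shares of other tissues was not tested.

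As a family the lectins took a larger share of the RNA in glp-1 than in wild type at both ages. The 245 listed genes made up 1.31% ± 0.0455 of all FPKM in glp-1 at D6, 1.25% ± 0.0310 in glp-1 at D1, 0.562% ± 0.0169 in wild type at D6 and 0.596% ± 0.0402 in wild type at D1 (SD, n = 3 each). The libraries of the 2 genotypes did not overlap at either age, and each difference had an exact two-sided permutation p of 0.1, the smallest that 3 against 3 libraries allow. Between ages the exact permutation p was 0.2 in glp-1 and 0.3 in wild type. These shares are of the values as deposited. Factors that level 40 muscle and neuron genes across libraries were 1.32 to 1.49 in glp-1 at D6 and 0.504 to 0.642 in wild type at D6. At D1 they were 1.37 to 1.52 in glp-1 and 0.771 to 0.945 in wild type. Dividing by such factors lowers the family in glp-1 relative to wild type at both ages, more so at D6. Whether the family then stays higher in glp-1 was not tested. The 5 most abundant members held 53.6% to 54.8% of the members' summed FPKM in glp-1 D6 libraries, against 66.3% to 68.7% in glp-1 D1 libraries, and 70.5% to 73.2% in wild-type D6 libraries, against 65.4% to 66.5% in wild-type D1 libraries. Members with a group mean of 100 FPKM or more numbered 20 in glp-1 at D6, 13 in glp-1 at D1, 8 in wild type at D6 and 10 in wild type at D1, and members with a mean under 1 FPKM numbered 31, 39, 50 and 26 in the same groups. The highest of the 4 group means was in glp-1 at D6 for 55 members, in glp-1 at D1 for 28, in wild type at D6 for 7 and in wild type at D1 for 33.

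**Figure D1:**
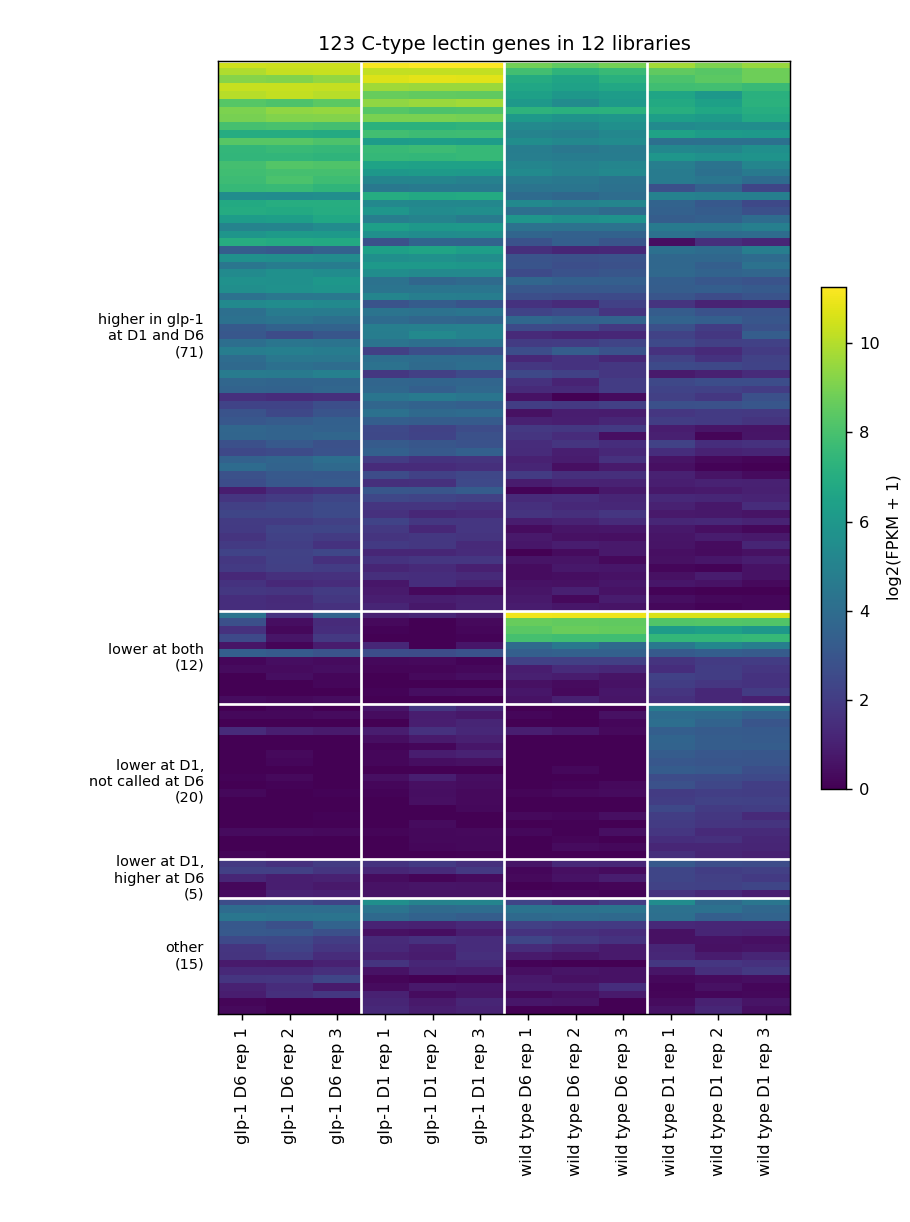
Levels of the 123 C-type lectins in the 12 libraries as log2(FPKM + 1) (colour scale), each row a gene and each column a library, with rows in blocks by their calls of glp-1 against wild type and, within a block, by mean FPKM. The blocks hold 71 genes higher in glp-1 at both ages, 12 lower at both, 20 lower at D1 and not called at D6, 5 lower at D1 and higher at D6, and 15 others.

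The most abundant member differed between genotypes. In glp-1 it was clec-63, with 12.8% to 14.2% of the members' FPKM at D6 and 23.3% to 24.1% at D1. In wild type it was clec-87, with 41.6% to 43.3% at D6 and 30.2% to 34.1% at D1. The level of clec-63 was 1376 ± 24.1 FPKM in glp-1 at D6, 2417 ± 76.9 in glp-1 at D1, 436 ± 63.9 in wild type at D6 and 707 ± 149.7 in wild type at D1 (SD, n = 3 each). Next in glp-1 at D6 came clec-1 (1268 ± 35.5 FPKM), clec-50 (1175 ± 170.0 FPKM), clec-41 (1108 ± 80.5 FPKM) and clec-150 (638 ± 102 FPKM). The libraries of clec-50 overlapped those of clec-1 and those of clec-41, while the libraries of clec-1 all lay above those of clec-41. In glp-1 at D1 the order after clec-63 was clec-209 (1739.7 ± 101 FPKM), clec-50 (1210.0 ± 11.04 FPKM), clec-1 (782 ± 26.1 FPKM) and clec-85 (767 ± 80.3 FPKM), of which clec-1 and clec-85 overlapped. In wild type at D6 clec-87 (2056 ± 41.8 FPKM) was followed by clec-63 (436 ± 63.9 FPKM), clec-91 (384 ± 16.4 FPKM), clec-266 (380.3 ± 38.97 FPKM) and clec-88 (233 ± 13.9 FPKM), and the libraries of clec-63, clec-91 and clec-266 overlapped. In wild type at D1 clec-87 (1611 ± 3.41 FPKM) was followed by clec-63 (707 ± 149.7 FPKM), clec-50 (379 ± 56.4 FPKM), clec-209 (352 ± 88.6 FPKM) and clec-91 (299 ± 6.48 FPKM), where the libraries of clec-209 overlapped those of clec-50 and those of clec-91, while the libraries of clec-50 all lay above those of clec-91. The name clec-209 matched no gene of the annotation used for coordinates.

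The comparison of glp-1 with wild type at D1 asks which lectins differ in animals without a germline at the start of adulthood. More members were higher in glp-1 than lower. The largest rise was that of clec-85, whose transcript depends on PMK-1 and which had 683, 776 and 843 FPKM in glp-1 D1 libraries, against 113, 85.3 and 144 FPKM in wild-type D1 libraries. The log2 fold change on the log2(FPKM + 1) scale was 2.77 (SE 0.19, adjusted p = 2.48e-08). Next came clec-65, with 507, 518 and 489 FPKM in glp-1 D1 libraries, against 78.2, 68.9 and 112 FPKM in wild-type D1 libraries, a change of 2.57 (SE 0.14, adjusted p = 1.48e-09). Every glp-1 library of both genes lay above every wild-type library. clec-67, another gene controlled by PMK-1, had 26.2, 38.9 and 30.7 FPKM in glp-1 D1 libraries, against 3.73, 2.51 and 9.03 FPKM in wild-type D1 libraries. Its change was 2.56 (SE 0.30, adjusted p = 3.12e-06). clec-52 had 58.9, 42.5 and 46.5 FPKM in glp-1 D1 libraries, against 10.2, 8.76 and 5.72 FPKM in wild-type D1 libraries, a change of 2.47 (SE 0.17, adjusted p = 9.52e-09). Here too the groups did not overlap.

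At adjusted p under 0.05 by limma, 72 of the 123 members were higher in glp-1 at D1, 37 were lower and 14 were not called. Among all 13614 genes tested 41.3% were higher and 48.1% lower, and the members' shares were 58.5% and 30.1%. The median log2 change was 0.80 over the members and -0.15 over all genes. Changes of at least 2-fold were called higher in 53 members, where the share over all genes was 25.3%, and lower in 34, where it was 39.1%. Of the 49 members above 1 FPKM in all libraries 44 were higher (39 by at least 2-fold) and 1, clec-90, was lower, with a median of 1.68. No share over all genes above 1 FPKM in all libraries is given beside these. Scaling the values to the muscle and neuron lists moved the median of all genes to -0.69, and the calls were then 59 higher and 43 lower. The members' median lay 0.95 above that of all genes as deposited and 1.08 above it after this scaling.

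The 4 largest falls at D1 were of clec-87, clec-91, clec-88 and clec-266, which stood among the 5 highest members in wild type at D6. clec-87 had 0.983, 1.26 and 0.765 FPKM in glp-1 D1 libraries, against 1614, 1612 and 1607 FPKM in wild-type D1 libraries, and the log2 fold change was -9.66 (SE 0.52, adjusted p = 2.77e-08). clec-91 had 0.226, 0 and 0.230 FPKM in glp-1 D1 libraries, against 293, 306 and 297 FPKM in wild-type D1 libraries, a change of -8.03 (SE 0.44, adjusted p = 1.68e-08). Both were thus near 0 in glp-1 and abundant in wild type. clec-88 had 0, 0 and 0.0702 FPKM in glp-1 D1 libraries, against 174, 176 and 189 FPKM in wild-type D1 libraries, a change of -7.46 (SE 0.34, adjusted p = 1.32e-09). clec-266 had 0.0709, 0 and 0.138 FPKM in glp-1 D1 libraries, against 72.5, 83.6 and 61.7 FPKM in wild-type D1 libraries, a change of -6.10 (SE 0.27, adjusted p = 2.12e-10). At D6 the gap was again wide, with all wild-type libraries above all glp-1 libraries. clec-87 had 18.3, 2.11 and 11.2 FPKM in glp-1 D6 libraries, against 2096, 2013 and 2059 FPKM in wild-type D6 libraries (-7.83, SE 0.52, adjusted p = 1.3e-07). clec-91 had 5.64, 0.334 and 1.62 FPKM in glp-1 D6 libraries, against 403, 379.6 and 371 FPKM in wild-type D6 libraries (-7.08, SE 0.44, adjusted p = 4.03e-08). The glp-1 libraries were uneven in both genes. clec-88 had 4.68, 0.540 and 2.64 FPKM in glp-1 D6 libraries, against 249, 228 and 223 FPKM in wild-type D6 libraries (-6.21, SE 0.34, adjusted p = 5.74e-09). clec-266 had 2.08, 0.197 and 1.74 FPKM in glp-1 D6 libraries, against 338, 415 and 388 FPKM in wild-type D6 libraries (-7.46, SE 0.27, adjusted p = 2.21e-11).

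Among the glp-1 D6 libraries replicate 2 had the lowest value for each of these 4 genes. Replicate 2 was also the lowest for the germline list, whose sums are given above. The part of residual germline RNA in these values was not tested. With all libraries, clec-87 (2.18, SE 0.52, adjusted p = 0.00569), clec-88 (1.63, SE 0.34, adjusted p = 0.00202), clec-91 (1.32, SE 0.44, adjusted p = 0.0266) and clec-266 (1.02, SE 0.27, adjusted p = 0.00741) were called higher at D6 than at D1 in glp-1. Without replicates 1 and 3 of glp-1 at D6, the changes were 0.64 (adjusted p = 0.000837) for clec-87, 0.59 (adjusted p = 0.00108) for clec-88, 0.22 (adjusted p = 0.179) for clec-91 and 0.16 (adjusted p = 0.478) for clec-266, with the lone library assumed to vary like the other groups. The call of clec-91 also ended without any single glp-1 D1 library (adjusted p 0.0574 to 0.08). In wild type clec-266 alone of the 4 was called higher with age, with 338, 415 and 388 FPKM in wild-type D6 libraries, against 72.5, 83.6 and 61.7 FPKM in wild-type D1 libraries (2.38, SE 0.27, adjusted p = 1.58e-05). Without replicates 1 and 3 of glp-1 at D6, which enter the shared estimate of the spread, the wild-type rises of clec-87 (0.35, adjusted p = 0.00268), clec-88 (0.37, adjusted p = 0.00142) and clec-91 (0.36, adjusted p = 0.00420) were called as well.

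**Figure D2:**
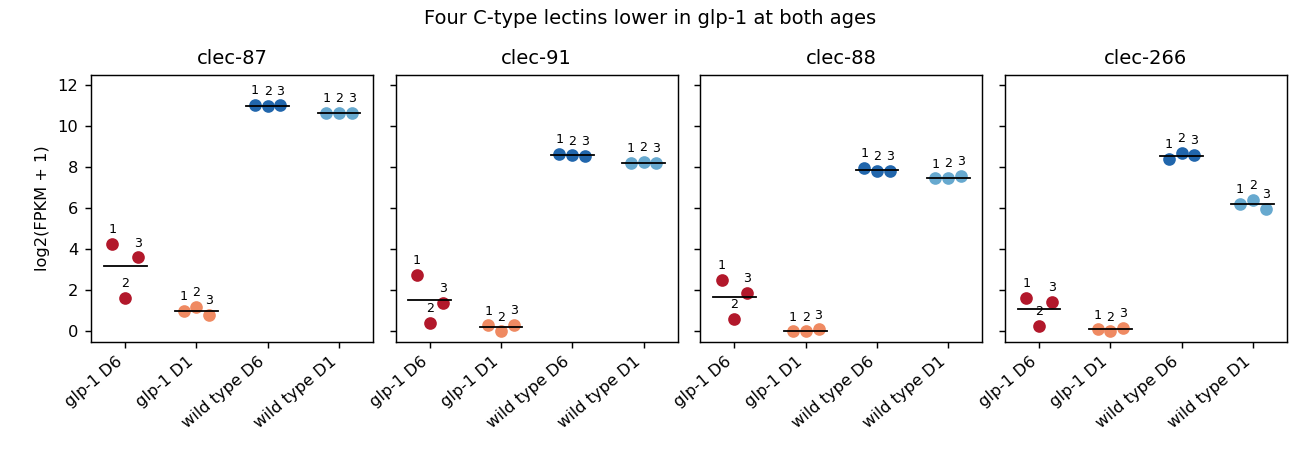
Levels of clec-87, clec-91, clec-88 and clec-266 as log2(FPKM + 1) in each library of the 4 groups, with points numbered by replicate and a line at the group mean. All wild-type points lie above all glp-1 points, and within glp-1 D6 the point of replicate 2 is the lowest for each gene.

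Another set of wild-type lectins reached 1 FPKM at D1 and not at D6. In all, 21 members reached 1 FPKM in the wild-type D1 libraries and in no other library: clec-79, clec-92, clec-94, clec-95, clec-96, clec-99, clec-104, clec-123, clec-125, clec-133, clec-135, clec-136, clec-137, clec-138, clec-141, clec-151, clec-157, clec-161, clec-207, clec-217 and clec-263. Their summed level was 1.39 to 2.36 FPKM in glp-1 D6 libraries, 2.11 to 6.01 FPKM in glp-1 D1 libraries, 3.17 to 4.09 FPKM in wild-type D6 libraries and 79.4 to 102 FPKM in wild-type D1 libraries. Being chosen by that pattern they are described and not tested as a set. clec-99 had the highest mean of them in wild type at D1, with 0.195, 0.167 and 0.242 FPKM in glp-1 D6 libraries, 0.292, 0.848 and 0.659 in glp-1 D1 libraries, 0.158, 0.0583 and 0.404 in wild-type D6 libraries and 14.2, 13.6 and 10.4 in wild-type D1 libraries. clec-207 was listed at 0 in all libraries of glp-1 D6 and wild-type D6, with 0.0788, 0.157 and 0.605 FPKM in glp-1 D1 libraries, against 10.9, 9.06 and 9.05 FPKM in wild-type D1 libraries. clec-95 was listed at 0 in all 6 glp-1 libraries and had 0, 0.186 and 0 FPKM in wild-type D6 libraries, against 8.59, 7.83 and 5.48 FPKM in wild-type D1 libraries.

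A pair of members that passed 1 FPKM in at least 1 glp-1 D1 library showed the same order of levels in wild type. clec-197 was listed at 0 in all 3 wild-type D6 libraries, against 25.6, 25.6 and 20.3 FPKM in wild-type D1 libraries, and had 0.609, 2.53 and 1.49 FPKM in glp-1 D1 libraries. clec-208 had 0, 0 and 0.150 FPKM in wild-type D6 libraries, against 15.7, 11.01 and 6.90 FPKM in wild-type D1 libraries, and 0, 0.902 and 1.25 FPKM in glp-1 D1 libraries. The 21 lectins were chosen by their wild-type D1 pattern, so a likeness to other genes high there is set by that choice. A list of 20 sperm genes was also highest in wild type at D1. It summed to 21.8 to 36.6 FPKM in glp-1 D6 libraries, 20.7 to 23.3 FPKM in glp-1 D1 libraries, 35.8 to 43.1 FPKM in wild-type D6 libraries and 279 to 368 FPKM in wild-type D1 libraries. Of its 15 tested genes 15 fell below wild type in glp-1 at D1, and 14 fell with age in wild type, against 48.1% and 22.7% of all genes tested. The genes spe-9, spe-38, spe-42 and spe-44 were listed at 0 in all glp-1 D1 libraries, and spe-12 in all wild-type D6 libraries. Of these genes only spe-44 passed the 1 FPKM filter, so the zeros of the others say little. spe-44 was not called with age in wild type (-0.149, adjusted p = 0.297). The part of sperm RNA in these lectins was not tested. The 21 lectins encode proteins of 174 to 862 amino acids (median 231), against a median of 369.5 for the 70 with a known length among the 71 members higher in glp-1 at both ages. The median was 323 over the 122 members with a known length. It was 242 over the 12 members lower in glp-1 at both ages, 4 of which are among the 21. Of the 21, 8 lie on chromosome II, 6 on I, 3 each on III and V, and 1 on IV. Of all members with coordinates 21.3% lie on II, 11.5% on I, 6.56% on III, 32.8% on V and 25.4% on IV.

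**Figure D3:**
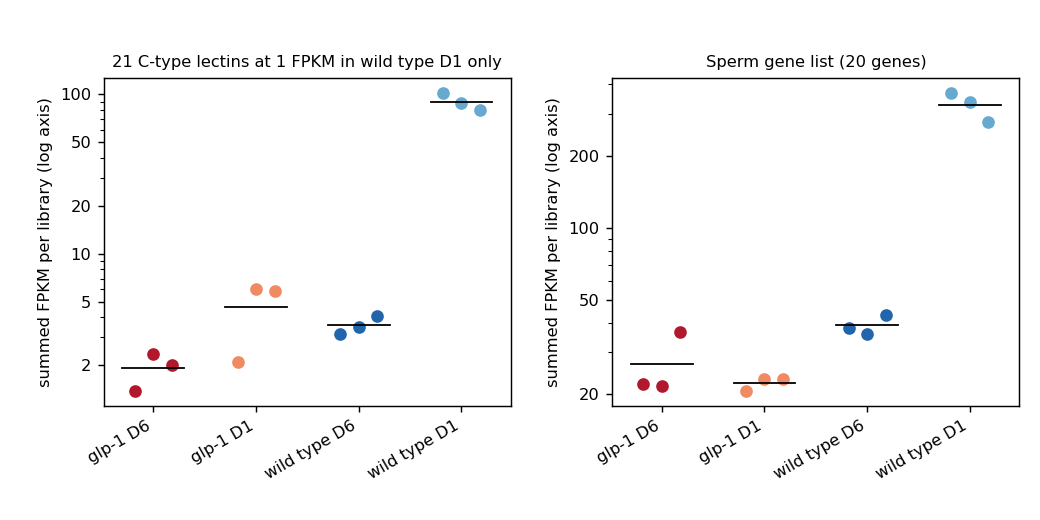
Summed FPKM per library (log axes) of the 21 C-type lectins that reached 1 FPKM in wild-type D1 libraries only and of the 20 sperm genes, as points in the 4 groups with a line at the mean. The lectins sum to 79.4 to 102 FPKM in wild-type D1 libraries and to at most 6.01 FPKM elsewhere; the sperm genes sum to 279 to 368 FPKM in wild-type D1 libraries and to at most 43.1 FPKM elsewhere.

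At D6 the lectins were again mostly higher in glp-1. clec-41, a gene studied in the defence against Bacillus thuringiensis, had 1059.8, 1201 and 1064 FPKM in glp-1 D6 libraries, against 82.9, 61.4 and 73.8 FPKM in wild-type D6 libraries, a log2 change of 3.92 (SE 0.22, adjusted p = 3.82e-09). clec-258 had 128, 118.5 and 113 FPKM in glp-1 D6 libraries, against 6.24, 9.59 and 6.89 FPKM in wild-type D6 libraries, a change of 3.84 (SE 0.27, adjusted p = 1.84e-08). In both the lowest glp-1 library was several times the highest wild-type library. clec-1 had 1267, 1303 and 1232 FPKM in glp-1 D6 libraries, against 101, 87.2 and 107 FPKM in wild-type D6 libraries, a change of 3.68 (SE 0.081, adjusted p = 1.84e-13). clec-165 had 39.3, 43.6 and 40.1 FPKM in glp-1 D6 libraries, against 2.17, 1.58 and 3.46 FPKM in wild-type D6 libraries, a change of 3.66 (SE 0.20, adjusted p = 7.47e-10). The groups did not overlap here either. The 4 largest falls were of clec-87, clec-266, clec-91 and clec-88, given above.

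Of the 123 members 85 were higher in glp-1 at D6, 12 were lower and 26 were not called. Over all genes tested 44.4% were higher and 45.4% lower, and the members' shares were 69.1% and 9.76%. The median change was 1.11 over the members and -0.032 over all genes. At 2-fold or more 63 members were higher, where all genes gave 34.3%, and 6 were lower, where all genes gave 37.3%. Of the 49 members above 1 FPKM throughout, 46 were higher (40 by at least 2-fold) and 1, clec-90, was lower, with a median of 2.17. The call of clec-90 ended without glp-1 D6 replicate 3 (adjusted p = 0.108), without wild-type D6 replicate 3 (adjusted p = 0.0543) and without glp-1 D6 replicates 1 and 3 (adjusted p = 0.0938). Scaling to the muscle and neuron lists moved the median of all genes to -0.86 and gave 57 higher and 21 lower, so that the share of higher among the calls was 73.1%, against 87.6% as deposited (33.8% and 49.5% over all genes). The members' median was then 1.24 above that of all genes, against 1.14 as deposited. Without glp-1 D6 replicates 1 and 3, 7 members were called lower, against 12.

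The D1 and D6 comparisons share no library, so their calls can be set side by side. Both use 1 common estimate of the spread, so the calls are not fully independent. Higher at both ages were 71 members, which is 57.7% of the 123, against 38.3% of all genes tested. They are 98.6% of the 72 members higher at D1 and 83.5% of the 85 higher at D6. Over all genes the same shares were 92.7% and 86.3%, near those of the members. Lower at both ages were 12 members, which is 9.76% of the 123, against 42.7% of all genes. They are 32.4% of the 37 members lower at D1, against 88.8% over all genes, and all of the 12 lower at D6, against 94.1% over all genes. Among the 49 above 1 FPKM throughout, 44 were higher at both ages and 1 was lower at both. The 12 were clec-12, clec-78, clec-87, clec-88, clec-90, clec-91, clec-104, clec-123, clec-151, clec-157, clec-196 and clec-266. No member was higher at D1 and lower at D6, where 0.779% of all genes were. A further 20 (16.3%) were lower at D1 and not called at D6, against 4.37% of all genes, and none of these 20 is among the 49. Another 9 (7.32%), of which 2 are among the 49, were not called at D1 and higher at D6, against 5.08% of all genes. The one higher at D1 and not called at D6, a class of 2.22% of all genes, was clec-60, with 1.56, 2.09 and 1.66 FPKM in glp-1 D1 libraries, against 0.404, 0.472 and 0.393 FPKM in wild-type D1 libraries (0.96, SE 0.18, adjusted p = 0.000243). At D6 it had 4.57, 4.46 and 3.19 FPKM in glp-1 D6 libraries, against 4.18, 2.66 and 2.16 FPKM in wild-type D6 libraries (0.36, SE 0.18, adjusted p = 0.0752). Scaled to muscle and neuron genes, the D6 difference of clec-60 was -0.64 (adjusted p = 0.0110).

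For 5 members the direction of the call turned between ages: clec-73, clec-126, clec-136, clec-158 and clec-232 were lower in glp-1 at D1 and higher at D6, which is 4.07% of the members, against 1.01% of all genes tested, and none of the 5 is among the 49. clec-232 had 1.32, 1.64 and 2.67 FPKM in glp-1 D1 libraries, against 4.05, 3.20 and 3.36 FPKM in wild-type D1 libraries (-0.68, SE 0.18, adjusted p = 0.00308). At D6 it had 3.42, 3.36 and 2.33 FPKM in glp-1 D6 libraries, against 0.144, 0.358 and 0.262 FPKM in wild-type D6 libraries (1.68, SE 0.18, adjusted p = 9.22e-07), the opposite order. clec-136 had 0.461, 0.534 and 0.522 FPKM in glp-1 D1 libraries, against 3.73, 3.55 and 4.11 FPKM in wild-type D1 libraries (-1.67, SE 0.16, adjusted p = 3.22e-07). At D6 it had 0.191, 0.900 and 0.723 FPKM in glp-1 D6 libraries, against 0, 0.0736 and 0.110 FPKM in wild-type D6 libraries (0.57, SE 0.16, adjusted p = 0.00428), the opposite order. All 5 were low, with group means up to 6.20 FPKM. Scaled to the muscle and neuron lists, the D6 changes were -0.031 for clec-73 and -0.030 for clec-126, and those of clec-136 (0.38, adjusted p = 0.0600) and clec-158 (0.36, adjusted p = 0.0802) no longer passed. The D6 call of clec-73 also ended without glp-1 D6 replicate 1 (adjusted p = 0.0588) and without wild-type D6 replicate 1 (adjusted p = 0.0752). Without glp-1 D6 replicates 1 and 3 the D6 calls of clec-73 (adjusted p = 0.198) and clec-126 (adjusted p = 0.0972) ended.

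**Figure D4:**
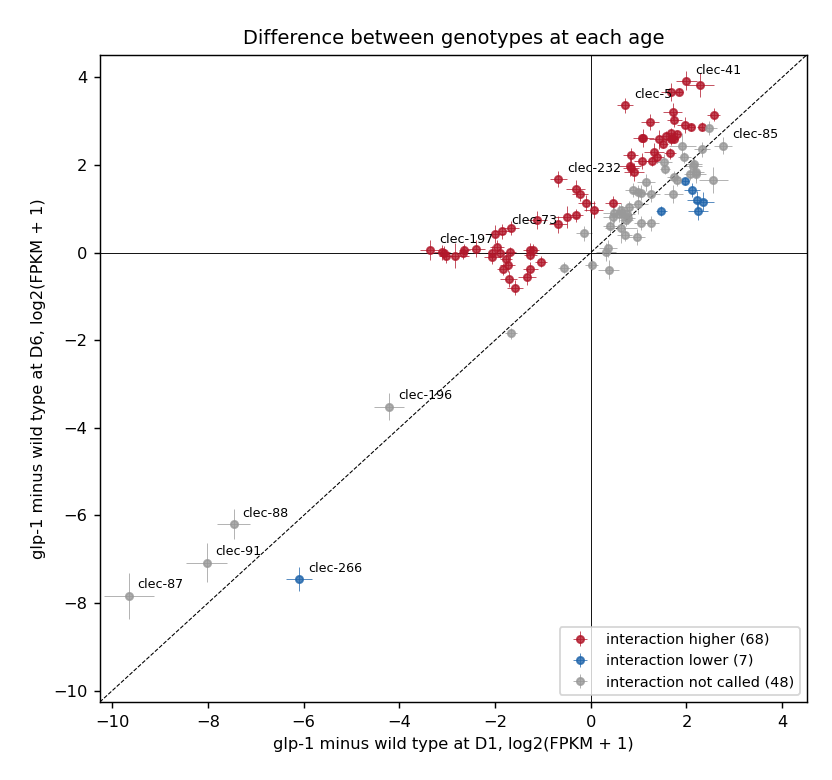
Log2 change of glp-1 against wild type at D6 (y axis) plotted against that at D1 (x axis) for the 123 members, on the log2(FPKM + 1) scale, each point a gene with its SE as bars, coloured by the call of the interaction, with a dashed line where both changes are equal. The 71 genes higher at both ages are in the upper right, the 12 lower at both ages in the lower left, and the 20 lower at D1 and not called at D6 lie near 0 on the y axis.

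With age in glp-1, the lectins split into those that rose and those that fell. The largest rise was of clec-258, with 128, 118.5 and 113 FPKM in glp-1 D6 libraries, against 6.05, 11.3 and 11.04 FPKM in glp-1 D1 libraries, a change of 3.58 (SE 0.27, adjusted p = 3.46e-07). clec-218 had 185, 192 and 167 FPKM in glp-1 D6 libraries, against 22.0, 23.5 and 23.3 FPKM in glp-1 D1 libraries (2.93, SE 0.20, adjusted p = 1.29e-07). clec-5 had 208, 273 and 221 FPKM in glp-1 D6 libraries, against 34.0, 34.3 and 29.8 FPKM in glp-1 D1 libraries (2.80, SE 0.17, adjusted p = 3.73e-08). The lowest D6 library of these 3 genes was several times their highest D1 library. clec-145 had 24.6, 24.4 and 28.97 FPKM in glp-1 D6 libraries, against 2.60, 3.37 and 4.85 FPKM in glp-1 D1 libraries (2.58, SE 0.21, adjusted p = 4.92e-07). The largest fall was of clec-265, with 9.07, 7.98 and 10.2 FPKM in glp-1 D6 libraries, against 84.02, 95.2 and 79.8 FPKM in glp-1 D1 libraries (-3.12, SE 0.18, adjusted p = 2.13e-08). clec-4, a PMK-1 target, had 1.95, 1.70 and 1.83 FPKM in glp-1 D6 libraries, against 19.7, 24.1 and 20.1 FPKM in glp-1 D1 libraries (-2.98, SE 0.21, adjusted p = 1.12e-07). The D6 libraries of both genes lay below all D1 libraries. clec-47 had 5.24, 5.35 and 3.78 FPKM in glp-1 D6 libraries, against 47.5, 31.7 and 33.0 FPKM in glp-1 D1 libraries (-2.72, SE 0.33, adjusted p = 2.57e-05). clec-67 had 7.29, 5.18 and 7.22 FPKM in glp-1 D6 libraries, against 26.2, 38.9 and 30.7 FPKM in glp-1 D1 libraries (-2.12, SE 0.30, adjusted p = 6.97e-05). Neither gene's ages overlapped.

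At adjusted p under 0.05, 49 members were higher at D6 than at D1 in glp-1, 24 were lower and 50 were not called, where 39.1% and 15.6% of all genes were higher and lower and the members' shares were 39.8% and 19.5%. The share of higher calls was near that of all genes. The median was 0.11 over members and 0.20 over all genes. Changes of at least 2-fold made up more of the members than of all genes, with 30 higher (24.4%, against 9.12% of all genes) and 13 lower (10.6%, against 4.95%). Of the 49 members above 1 FPKM throughout, 21 were higher (15 by at least 2-fold) and 13 were lower (9 by at least 2-fold). The intestine list had 6 higher and 8 lower of 17 in the same comparison.

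With age in wild type, falls outnumbered rises. The largest falls, of clec-197, clec-99, clec-208 and clec-207, were of genes high in wild type at D1 and given above. Their changes were -4.63 (SE 0.22), -3.51 (SE 0.17), -3.48 (SE 0.29) and -3.41 (SE 0.15) in that order, with adjusted p at most 7.25e-07. All of these genes became members through D1 libraries alone, and clec-99 and clec-207 through wild-type D1 libraries alone, which favours such a fall. The largest rises were of clec-266, given above, clec-190, clec-80 and clec-258. clec-190 had 60.2, 48.3 and 52.5 FPKM in wild-type D6 libraries, against 8.99, 10.04 and 14.7 FPKM in wild-type D1 libraries (2.18, SE 0.17, adjusted p = 4.65e-07). clec-80 had 40.3, 31.4 and 33.8 FPKM in wild-type D6 libraries, against 11.05, 7.52 and 4.44 FPKM in wild-type D1 libraries (2.13, SE 0.21, adjusted p = 4.6e-06). clec-258 had 6.24, 9.59 and 6.89 FPKM in wild-type D6 libraries, against 0.323, 1.87 and 1.33 FPKM in wild-type D1 libraries (2.03, SE 0.27, adjusted p = 5.74e-05). In these the D6 libraries all lay above the D1 libraries. In wild type 22 members were higher with age, 62 were lower and 39 were not called, where 35.1% and 22.7% of all genes were higher and lower and the members' shares were 17.9% and 50.4%. The median was -0.44 over members and 0.13 over all genes. At 2-fold or more 11 were higher (3.24% of all genes) and 40 were lower (9.45%). Of the 49 members above 1 FPKM throughout, 9 were higher (5 by at least 2-fold) and 25 were lower (10 by at least 2-fold), with a median of -0.40. Of the muscle list 18 of 20 genes fell with age in wild type. With values scaled to muscle and neuron genes, the median of all genes was 0.67 and 43 members were higher and 44 lower, a share of 49.4% higher among the calls, against 26.2% as deposited (84.1% and 60.7% over all genes). The members' median lay 0.57 below that of all genes as deposited and 0.68 below it after this scaling. The intestine list fell too, with 13 of 17 genes lower and 1 higher, and its part in the members' fall was not tested.

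The age comparisons share no library but use 1 common estimate of the spread. Set side by side, they had 21 members higher in both genotypes, which is 17.1% of the 123 and near the 18.7% of all genes tested. They are 42.9% of the 49 members higher in glp-1 and 95.5% of the 22 higher in wild type, against 48% and 53.4% over all genes. Lower in both were 19 members, which is 15.4% of the 123, against 7.82% of all genes. They are 79.2% of the 24 members lower in glp-1 and 30.6% of the 62 lower in wild type, against 50.1% and 34.5% over all genes. Among the 49 above 1 FPKM throughout, 9 were higher in both and 11 lower in both. Those lower in both included the abundant clec-63, clec-209 and clec-85 and the PMK-1 targets clec-4 and clec-67. Scaled to muscle and neuron genes, the wild-type falls of clec-63 (-0.077, adjusted p = 0.723), clec-85 (-0.37, adjusted p = 0.233) and clec-67 (-0.85, adjusted p = 0.0560) missed the threshold. No member was lower in glp-1 and higher in wild type, where 2.36% of all genes were. Lower in wild type and not called in glp-1 were 38 members (30.9%), 11 of them above 1 FPKM throughout, against 10.8% of all genes. Higher in glp-1 and not called in wild type were 23 members (18.7%), 9 of them above 1 FPKM throughout, near the 16.3% of all genes. The remaining 5 of the 62 lower in wild type, clec-1, clec-56, clec-73, clec-147 and clec-232, were higher in glp-1, which is 4.07% of the members and 4.07% of all genes. The rise of clec-73 in glp-1 was not called without glp-1 D6 replicates 1 and 3 (0.65, adjusted p = 0.0633).

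The difference of the 2 age changes, in glp-1 minus wild type, was tested as an interaction. It was positive in 68 members and negative in 7, with 48 not called, where 30.9% and 16.6% of all genes were positive and negative. The median was 0.84 over members and 0.15 over all genes. Of the 49 members above 1 FPKM throughout 25 were positive and 3 negative, with a median of 0.58. Changes of at least 2-fold were positive in 48 members (13.3% of all genes) and negative in 4 (3.97%), and among the 49 they were positive in 12 and negative in 1. Scaled to the muscle and neuron lists the calls were 42 positive and 19 negative, a share of 68.9% positive, against 90.7% as deposited. Over all genes that share was 23.6% scaled and 65.01% as deposited, and the median of all genes moved to -0.37 with the scaling. The members' median lay 0.71 above that of all genes with the scaling and 0.69 above it as deposited. The negative count was 13 with median-ratio scaling, 4 without glp-1 D1 replicate 1 and 4 with a pseudocount of 0.1 FPKM. The 21 genes that reached 1 FPKM in wild-type D1 libraries alone make up 21 of the 68 positive calls, which the choice by that pattern favours.

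Among abundant members with a positive interaction, clec-1 stood at 1268 ± 35.5 FPKM in glp-1 at D6, 782 ± 26.1 in glp-1 at D1, 98.5 ± 10.2 in wild type at D6 and 218.2 ± 19.5 in wild type at D1 (SD, n = 3 each). It rose with age in glp-1 (0.70, SE 0.081, adjusted p = 1.06e-05) and fell in wild type (-1.14, SE 0.081, adjusted p = 1.6e-07), an interaction of 1.84 (SE 0.11, adjusted p = 2.98e-07). clec-5 rose in glp-1 as above and was at 25.2, 21.9 and 18.5 FPKM in wild-type D6 libraries, against 24.6, 20.6 and 14.5 FPKM in wild-type D1 libraries (0.15, SE 0.17, adjusted p = 0.464), an interaction of 2.65 (SE 0.24, adjusted p = 3.88e-06). At D1 clec-5 was higher in glp-1 by 0.72 (SE 0.17, adjusted p = 0.00137), a call that ended when scaled to muscle and neuron genes (0.053, adjusted p = 0.786). clec-41 (1.92, SE 0.31, adjusted p = 0.000406) and clec-165 (1.98, SE 0.29, adjusted p = 0.000126) rose in glp-1 and were not called in wild type. clec-147 rose in glp-1, with 47.1, 50.4 and 56.3 FPKM in glp-1 D6 libraries, against 19, 19.9 and 20.2 FPKM in glp-1 D1 libraries (1.33, SE 0.085, adjusted p = 4.25e-08). In wild type it had 7.27, 7.42 and 7.65 FPKM in wild-type D6 libraries, against 8.89, 9.34 and 8.27 FPKM in wild-type D1 libraries (-0.22, SE 0.085, adjusted p = 0.042). That fall missed the threshold without any single wild-type D6 or glp-1 D1 library, without wild-type D1 replicate 1 or 2 and without glp-1 D6 replicate 2 (adjusted p 0.0518 to 0.127). It turned to 0.34 (adjusted p = 0.0471) when scaled to muscle and neuron genes. The fall of clec-56 in wild type (-0.48, SE 0.098, adjusted p = 0.00113) turned to 0.086 under the same scaling. The rise of clec-232 in glp-1 (0.51, SE 0.18, adjusted p = 0.0306) missed the threshold without glp-1 D1 replicate 1 or 2, without glp-1 D6 replicate 1 or 2 (adjusted p 0.0902 to 0.132), with a pseudocount of 0.1 FPKM and with either scaling.

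Of the 7 negative interactions, those of clec-266, clec-139, clec-86 and clec-4 were the largest among genes with at least 5 FPKM in a group. clec-86 was 10.1 ± 1.56 FPKM in glp-1 at D6, 28.8 ± 1.53 in glp-1 at D1, 4.04 ± 1.23 in wild type at D6 and 4.99 ± 1.61 in wild type at D1. It fell with age in glp-1 (-1.44, SE 0.22, adjusted p = 0.000104) and was not called in wild type (-0.24, SE 0.22, adjusted p = 0.359), with an interaction of -1.20 (SE 0.31, adjusted p = 0.0066). clec-139 had 0.878, 1.75 and 2.15 FPKM in glp-1 D6 libraries, against 7.06, 6.97 and 8.74 FPKM in glp-1 D1 libraries (-1.76, SE 0.21, adjusted p = 1.19e-05). In wild type clec-139 had 0.0831, 0.236 and 0.679 FPKM in wild-type D6 libraries, against 0.674, 0.783 and 0.979 FPKM in wild-type D1 libraries (-0.46, SE 0.21, adjusted p = 0.0697), under 1 FPKM in every library. Its interaction of -1.29 (SE 0.29, adjusted p = 0.00298) was -0.95 with a pseudocount of 0.1 FPKM, no longer called (adjusted p = 0.271). The interactions of clec-4 and clec-266 turned to 0.34 each with a pseudocount of 0.1 FPKM (adjusted p 0.731 and 0.783).

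**Figure D5:**
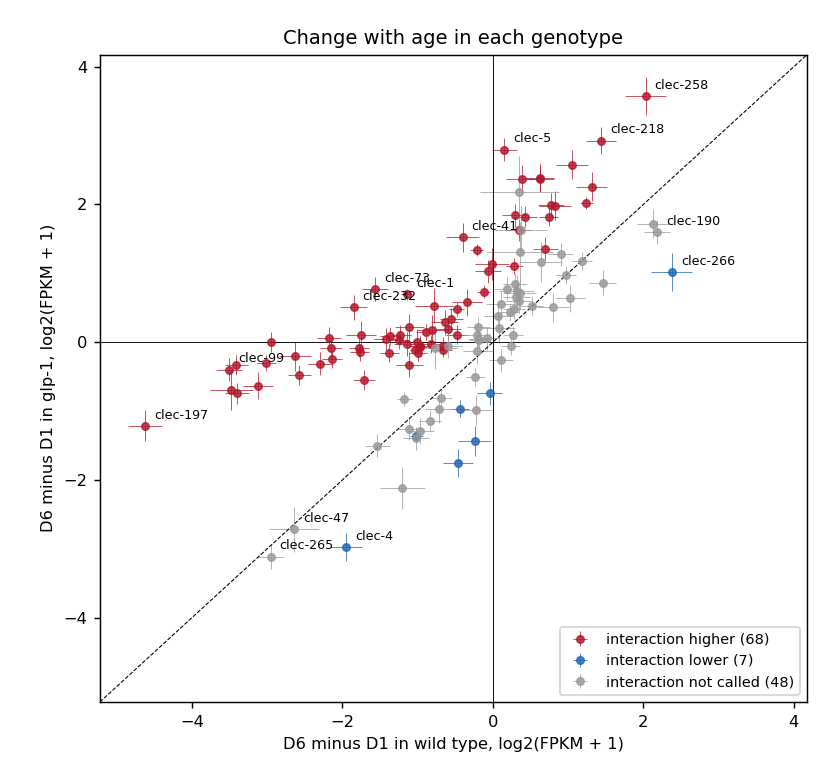
Log2 change of D6 against D1 in glp-1 (y axis) plotted against that in wild type (x axis) for the 123 members, on the log2(FPKM + 1) scale, each point a gene with its SE as bars, coloured by the call of the interaction, with a dashed line where both changes are equal. The 38 genes called lower in wild type and not called in glp-1 form a band near 0 on the y axis. By calls, 5 genes are lower in wild type and higher in glp-1, and 0 genes are higher in wild type and lower in glp-1. More points lie on these sides without both calls.

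Members studied for their part in infection did not move as 1 group. clec-60, which is induced by Staphylococcus aureus, its neighbour clec-61 and clec-71 rose with age in both genotypes. clec-61 had 14.4, 11.2 and 13.6 FPKM in glp-1 D6 libraries, against 1.64, 1.62 and 1.88 FPKM in glp-1 D1 libraries (2.37, SE 0.18, adjusted p = 2.83e-07). In wild type clec-61 had 1.27, 0.394 and 0.736 FPKM in wild-type D6 libraries, against 0.378, 0.0898 and 0 FPKM in wild-type D1 libraries (0.62, SE 0.18, adjusted p = 0.0116), a rise that missed the threshold without wild-type D6 replicate 1 (adjusted p = 0.0554). clec-60 changed by 0.87 (SE 0.18, adjusted p = 0.00137) in glp-1 and by 1.46 (SE 0.18, adjusted p = 2.46e-05) in wild type, and clec-71 by 0.98 (SE 0.13, adjusted p = 4.6e-05) and 0.97 (SE 0.13, adjusted p = 5.83e-05). At D6 clec-71 was higher in glp-1 (0.75, SE 0.13, adjusted p = 0.000132), but at -0.22 when scaled to muscle and neuron genes. clec-62 also rose in both, with 239 ± 14.5 FPKM in glp-1 at D6, 67.1 ± 3.44 in glp-1 at D1, 37.2 ± 4.65 in wild type at D6 and 22.1 ± 4.45 in wild type at D1. clec-63 and clec-66, which lie in the same run of clec genes as clec-62, fell in both. For clec-66 the change was -1.39 (SE 0.17, adjusted p = 1.48e-05) in glp-1 and -1.02 (SE 0.17, adjusted p = 0.000225) in wild type, where it was -0.49 (adjusted p = 0.0637) when scaled to muscle and neuron genes. In wild type the fall of clec-65 (-0.48, SE 0.14, adjusted p = 0.0126) turned to 0.13 when scaled to muscle and neuron genes and missed the threshold without wild-type D6 replicate 2 (adjusted p = 0.0521).

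clec-49, whose product binds Serratia marcescens, stood at 45.3 ± 1.32 FPKM in glp-1 at D6, 118 ± 8.45 in glp-1 at D1, 14.1 ± 1.32 in wild type at D6 and 29.4 ± 1.78 in wild type at D1, lower with age in both genotypes and higher in glp-1 at both ages. The difference between genotypes was 1.62 (SE 0.080, adjusted p = 2.22e-10) at D6 and 1.97 (SE 0.080, adjusted p = 3.93e-11) at D1. clec-42, studied with clec-41 in defence against Bacillus thuringiensis, was low, with 2.36, 2.41 and 4.10 FPKM in glp-1 D6 libraries, against 0.128, 0 and 0.123 FPKM in glp-1 D1 libraries (1.84, SE 0.16, adjusted p = 9.74e-07). It was not called between genotypes at D1 (-0.22, SE 0.16, adjusted p = 0.215). clec-7 was higher in glp-1 at D6 (0.44, SE 0.17, adjusted p = 0.0234), but called lower when scaled to muscle and neuron genes (-0.76, adjusted p = 0.000409). The call of clec-7 as deposited also ended without wild-type D6 replicate 1 (adjusted p = 0.0571), without wild-type D6 replicate 3 (adjusted p = 0.0560) and without glp-1 D6 replicate 1 (adjusted p = 0.0653). Of the 23 lectins listed for a described role or use as a reporter 19 were members. Of these 13 (68.4%) were higher in glp-1 at D1 and 4 (21.1%) lower, against 41.3% and 48.1% of all genes, and 14 (73.7%) were higher at D6 and 4 lower, against 44.4% and 45.4%. With age 10 (52.6%) rose and 7 (36.8%) fell in glp-1, against 39.1% and 15.6% of all genes. In wild type 4 (21.1%) rose and 8 (42.1%) fell with age, against 35.1% and 22.7%. Of the 10 above 1 FPKM throughout, 9 were higher in glp-1 at D1 and all 10 at D6, 3 rose and 6 fell with age in glp-1, and 1 rose and 6 fell in wild type. Genes near 0 in glp-1 cannot be among the 10, and none of those called lower in glp-1 is. That filter favours higher calls, and these counts have no matching share over all genes.

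The members were unevenly placed in the genome (build WBcel235). Of the 122 with coordinates 32.8% lay on chromosome V, 25.4% on IV and 2.46% on X, against 19.8%, 16.5% and 14.6% of all genes tested. Counting clec genes with the next clec gene within 20 kb as 1 run, 159 of 234 located clec genes and 85 members lay in 47 runs. In 23 runs with at least 2 members (75 members), 10 runs (22 members) had the highest group mean in the same group for all their members. The highest group is taken from the means alone, without a test, and no share expected without regard to runs is given. The longest run had 13 clec genes on chromosome V, 16839121 to 16869840. Its 7 members were low, and 5 of them (clec-40, clec-25, clec-31, clec-24 and clec-28) were highest in glp-1 at D6, while clec-36 and clec-26 were highest in glp-1 at D1. For clec-31 the D6 means were close, 1.16 FPKM in glp-1 and 1.15 FPKM in wild type, and not called apart. The next had 12 genes on chromosome IV, 3922165 to 4014235. Among its 9 members clec-67 was highest in glp-1 at D1, clec-71, clec-174, clec-74, clec-75 and clec-76 in glp-1 at D6, and clec-73, clec-79 and clec-78 in wild type at D1. One of the 3 runs of 7, on chromosome I, 11142110 to 11158833, held clec-94, clec-95, clec-96 and clec-99, all highest in wild type at D1. It also held clec-97, highest in wild type at D6 but called in no comparison. The sources used here do not say how fragments shared by near-identical neighbours were assigned, and single values of close copies are uncertain.

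Other genes of immunity and sugar binding were measured beside the lectins. Over all genes tested 41.3% were higher and 48.1% lower in glp-1 at D1, and 44.4% and 45.4% at D6. Of 32 tested effectors outside the clec family (lysozymes, caenopores, antimicrobial peptides and the like), 21 were higher in glp-1 at D1, 3 lower and 8 not called, and at D6 25 were higher and 7 not called. The antimicrobial peptide gene abf-2 (3.68, SE 0.16) and the lysozyme gene lys-2 (3.36, SE 0.33) had the largest rises at D1, and lys-4 (-1.37, SE 0.50) and lys-10 (-1.24, SE 0.19) the largest falls. With age 22 of the 32 rose and 2 fell in glp-1, against 39.1% and 15.6% of all genes. In wild type 15 rose and 7 fell, against 35.1% and 22.7% of all genes, and the share that fell was near that of all genes. All 12 galectin genes (lec), which encode lectins of another fold, were higher in glp-1 at D1 and 11 at D6, with lec-6 (2.33, SE 0.11) and lec-4 (2.22, SE 0.080) first at D1 and lec-8 (3.11, SE 0.14) and lec-9 (3.10, SE 0.092) first at D6. Of 29 tested regulators of innate immunity 18 were higher and 8 lower at D1, and 17 higher and 8 lower at D6. The kinase gene pmk-1 was not called at either age (D1 0.052, SE 0.10, adjusted p = 0.63, and D6 0.14, SE 0.10, adjusted p = 0.186). Among other genes of its pathway, nsy-1 (D1 0.70, D6 0.76) and sek-1 (D1 0.67, D6 0.45) were higher at both ages. In the same pathway atf-7 was lower at both (D1 -0.82, D6 -0.62). tir-1 was higher at D1 (0.95) and not called at D6 (-0.31, adjusted p = 0.0541). The receptor gene daf-2 was lower at both ages (D1 -1.33, D6 -0.75). The receptor gene fshr-1 was higher at both (D1 1.73, SE 0.11, and D6 2.56, SE 0.11). The Wnt gene mom-2 (-5.92, SE 0.17 at D1) and the phosphoinositide 3-kinase gene age-1 (-2.90, SE 0.10 at D1), both also transcribed in the germline, had the largest falls.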

How the data were processed

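Levels are FPKM per gene in 12 libraries of whole worms, deposited as such by the authors (per the file headers). HISAT2 2.0.4, DESeq2 1.6.3 and build WBcel235 are named in the submitters' processing notes. The FPKM program, its annotation and any use of strand were not given in the sources used here. FPKM hold no counts, so the depth is unknown and no counting interval is given. FPKM is scaled to each library, so a value is a share.

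Genes that reached 1 FPKM in 3 or more libraries (13614 of 20257; 6643 left out) were tested on the log2(FPKM + 1) scale in limma 3.58.1 (R 4.3.3), with trend and robust moderation and 4 group means (8 residual degrees of freedom). Adjusted p is Benjamini-Hochberg over all genes tested, two-sided, in each of 5 comparisons, with calls at 0.05. Fold changes understate those of low genes. The fit was tested on simulated data, but the outcome is not given here, so no error rate for these data is shown. Alternatives were a pseudocount of 0.1 FPKM, no filter, scaling to 40 muscle and neuron genes, median-ratio scaling, limma without trend or robust moderation, a replicate block and leaving out libraries. No 2 files were identical. Coordinates and protein lengths come from Ensembl release 115.

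The members and gene lists were chosen with earlier results of these data known. Members named were, per comparison, the 4 largest called changes each way with groups that did not overlap and a mean of at least 5 FPKM in 1 group (for the interaction, overlap was not asked), the 5 highest means per group, members with described roles and those of the 3 largest runs. Others named with values (such as clec-56, clec-60 and the genes that turned between ages or genotypes) were chosen after their values were seen. Protein and promoter sequences were not used here.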

Additional observations from a re-analysis of the deposited data

Results flagged for a closer look

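The change with age differed between the genotypes, by the interaction test over all genes, and the 4 largest of each sign among members with at least 5 FPKM in a group are given here. The interaction (age change in glp-1 minus age change in wild type, on the log2(FPKM + 1) scale) was positive for clec-197 (3.41, adjusted p = 4e-06), clec-99 (3.11, adjusted p = 9.24e-07), clec-207 (3.08, adjusted p = 4.87e-07) and clec-95 (2.95, adjusted p = 5.64e-07). These 4 had at most 2.53 FPKM in any library outside wild type at D1, where the sperm list is high too, and its part in the differences was not tested. clec-99, clec-207 and clec-95 reached 1 FPKM in wild-type D1 libraries alone, a choice that favours a positive interaction. Under 1 FPKM in glp-1 at D1, they had little room to fall there. The interaction was negative for clec-266 (-1.36, adjusted p = 0.0122), clec-139 (-1.29, adjusted p = 0.00298), clec-86 (-1.20, adjusted p = 0.0066) and clec-4 (-1.02, adjusted p = 0.0131). With a pseudocount of 0.1 FPKM the interactions of clec-266 and clec-4 turned to 0.34 each (adjusted p 0.783 and 0.731) and that of clec-139 was no longer called (-0.95, adjusted p = 0.271). Scaled to muscle and neuron genes, that of clec-4 missed the threshold (-0.87, adjusted p = 0.0658). For clec-266 the interaction was -2.21 without replicates 1 and 3 of glp-1 at D6.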

How the results depend on the processing

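Of the counts of called members, most stayed within 1.5 times the reported value. With muscle and neuron scaling, 21 members were lower in glp-1 at D6, 43 were higher with age in wild type, and the interaction was positive in 42 and negative in 19. Negative interactions numbered 13 with median-ratio scaling and 4 with a pseudocount of 0.1 FPKM, and 7 members were lower at D6 without glp-1 D6 replicates 1 and 3. Leaving out 1 library at a time gave 70 to 74 higher and 37 to 39 lower (glp-1 against wild type at D1), 83 to 86 higher and 10 to 14 lower (glp-1 against wild type at D6), 43 to 50 higher and 22 to 29 lower (age in glp-1), 19 to 26 higher and 58 to 62 lower (age in wild type), 66 to 70 higher and 4 to 9 lower (the interaction). The lowest negative interaction count, 4, came without glp-1 D1 replicate 1. The replicate block gave 73 higher and 38 lower (glp-1 against wild type at D1), 86 higher and 12 lower (glp-1 against wild type at D6), 50 higher and 24 lower (age in glp-1), 22 higher and 61 lower (age in wild type), 70 higher and 7 lower (the interaction). Deviations of same-numbered libraries correlated between -0.144 and 0.146 (18 pairs), and those of differently numbered libraries between -0.154 and 0.1495 (36 pairs). These correlations cannot tell whether same-numbered libraries shared a culture or batch. In the labels, same-numbered D6 libraries of the 2 genotypes do share a later temperature. Of 385 gene-level results, 296 kept direction and call with muscle and neuron scaling, 362 with the other pseudocount, 361 without glp-1 D6 replicates 1 and 3, and 367 or more under each other alternative. Directions turned with muscle and neuron scaling at D6 for clec-190 (-0.59), clec-7 (-0.76), clec-60 (-0.64), clec-71 (-0.22), clec-36 (-0.18), clec-31 (-0.68), clec-73 (-0.031) and clec-126 (-0.030), at D1 for clec-97 (-0.63), with age in wild type for clec-65 (0.13), clec-56 (0.086), clec-147 (0.34) and clec-84 (0.48), and in the interaction for clec-186 (-0.0091). After that scaling clec-190 (adjusted p = 0.0342) and clec-7 (adjusted p = 0.000409), called higher at D6 as deposited, were called lower. Also called in the turned direction were clec-60 (adjusted p = 0.0110), clec-31 (adjusted p = 0.00620), clec-97 (adjusted p = 0.000577), clec-147 (adjusted p = 0.0471) and clec-84 (adjusted p = 0.00773). The rest of these turned values were not called. With a pseudocount of 0.1 FPKM the interaction turned for clec-266 (0.34) and clec-4 (0.34). The cause was not tested. Depth is unknown, so levels under about 1 FPKM are the least certain.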
